A study of Mus musculus with 12 samples.

Results

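The heat shock chaperones described here are 10 genes, Hspa1a, Hspa1b, Hspa8, Hsph1, Dnajb1, Hsp90aa1, Hsp90ab1, Hspd1, Hspe1 and Hsf1, chosen by symbol from the 29486 genes of the normalised count table. All 10 were in the table, and all 10 reached the minimum level used here, a normalised count of at least 10 in at least 1 condition, which left 15571 genes. Total polyadenylated RNA was sequenced from primary splenic B cells of C57BL/6Babr mice in 12 libraries, 4 for each of 3 conditions. All cells had been activated with LPS, a bacterial lipopolysaccharide, at 10 μg/ml. The LPS cells received nothing further and are labelled with 48 h of stimulation. The LE cells had 48 h of LPS and then 20 μM etoposide for 4 h, a topoisomerase II inhibitor that leaves double-strand breaks in DNA. The LEKU cells had 47 h of LPS, then KU55933 at 10 μM for 1 h before the same etoposide treatment. KU55933 inhibits ATM, the kinase that signals such breaks. The labels do not say whether LPS cells stayed in culture for the further 4 h, and they do not give the mice behind each library. No library had KU55933 without etoposide. The comparisons ask how etoposide and the ATM inhibitor moved the mRNA levels of these genes.

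Heat shock proteins bind unfolded protein chains and keep them from aggregating. Hsp70 proteins hold and release short stretches of a client in a cycle driven by ATP, J-domain proteins bring them clients and start that cycle, and exchange factors reset it. Hsp90 takes over clients at a later stage, among them many kinases and receptors, and the Hsp60 and Hsp10 chaperonin folds proteins inside mitochondria. HSF1 is the transcription factor of the heat shock response: under stress it trimerises and binds heat shock elements, alternating GAA and TTC units spaced by any 2 bases. In activated B cells, which make large amounts of protein, the constitutive members of these families are among the abundant mRNAs.

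The columns of the 12 libraries summed to between 20400994 and 30575195. Within a condition the deposited columns were multiples of each other, with log2 ratios that ranged by at most 2.7e-14 over all genes. Each column is thus the authors' fitted mean scaled to the size of 1 library, and holds no spread between replicates. No test of a difference could therefore be made from this table, and the tests in the authors' comparison files were not used here. Levels are given below as the fitted mean per condition, and 95% intervals cover counting error only, which is a lower limit to the true error. A fold is given on the scale of log2(level + 1), and at least 1.5-fold in either direction serves as a description of size, not as a call of significance. The summed level of 8 B cell markers was 141161 in LPS, 75189 in LE and 83984 in LEKU, and 8 of 8 were above the minimum. The T cell markers summed to between 8.16 and 9.21 with 0 of 5 above the minimum, and the neutrophil and NK cell markers also stayed under it. The 4 macrophage markers summed to 92.3 in LPS, 127 in LE and 139 in LEKU, with Cd14 at 5.16, 24.1 and 40.1. The part of these marker differences in the values below was not tested, and in bulk RNA fewer cells of a type and less RNA per cell cannot be told apart. Each condition carried Illumina indexes of its own, so that index and condition cannot be told apart either.

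The elements that HSF1 binds are shown first, because Hsf1, which encodes the factor, is among the 10 genes; they are matches of letters only, and its binding was not measured here. RefSeq promoter windows of GRCm38.p6, from 250 bases before to 50 bases after a transcription start, were at hand for 6 of the 10 genes in 9 windows. Each is written on the strand of its gene, and capitals mark the alternating GAA and TTC units with the bases between them.

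Hspa1a, chr17:34972242-34972271, minus strand: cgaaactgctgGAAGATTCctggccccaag
Hspa1b, chr17:34959324-34959353, minus strand: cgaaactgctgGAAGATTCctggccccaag
Hspd1, chr1:55088053-55088082, minus strand: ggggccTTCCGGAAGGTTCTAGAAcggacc
Hspe1, chr1:55088053-55088082, plus strand: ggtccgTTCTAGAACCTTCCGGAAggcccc
Hsph1, chr5:149636280-149636308, minus strand: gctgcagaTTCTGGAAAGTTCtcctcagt

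Hspd1 and Hspe1, which encode Hsp60 and Hsp10 and are transcribed away from each other, share 1 stretch of 4 units. It lies at -144 to -127 from the second start of Hspd1 and at -89 to -72 from the start of Hspe1. Hsph1 holds 3 units at 16 to 28 bases after its second start. A separate match of 2 units, not printed above, lies before both of its starts, at -33 to -26 from the first and -54 to -47 from the second. In Hspa1a and Hspa1b only 2 units in a row matched exactly, at -104 to -97 in both, and their windows were identical at 296 of 300 bases (98.7%). An exact match of 3 units was found in 3 of the 6 genes, against 0.662% of all genes with a window and 2.74% of 73 other chaperone genes. By windows it was 4 of 9, against 0.603% of 32851 windows of the same length over all genes. The windows of Hspd1 and Hspe1 hold the same site, and so do both windows of Hsph1, so these matches are not separate from each other. A match of 2 units is GAANNTTC or TTCNNGAA, each its own reverse complement, and is contained in every match of 3 units. It was found in 5 of 6 genes, the near-identical Hspa1a and Hspa1b among them, against 17% of all genes. Of the other chaperone genes 24.7% held it. By windows it was 6 of 9, against 15.1% of all windows. The CCAAT box, on either strand, matched in 5 of 6 genes, among them Dnajb1, against 41.1% of all genes. By windows it was 6 of 9, against 37.4% of all windows. The letters TATAAA matched in 0 of 9 windows, against 13.6%. Dnajb1, an HSF1 target in other cells, had no match of 2 or 3 units in its 2 windows, which says only that these letters are not in them.

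**Figure D1:**
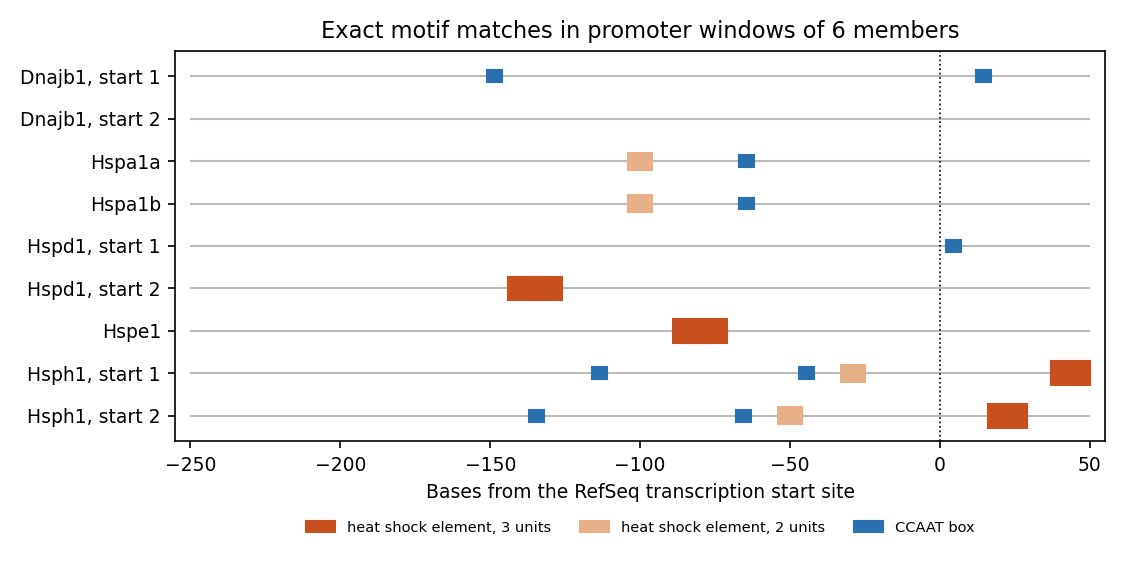
Exact motif matches in the 9 RefSeq promoter windows of 6 genes, drawn in bases from the transcription start (dotted line). Hspd1, Hspe1 and Hsph1 hold matches of 3 or more heat shock units, Hspa1a and Hspa1b hold 2 units at -104, and the windows of Dnajb1 hold none.

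The stress-inducible Hsp70 genes stood apart from the other members. Hspa1a and Hspa1b, each a gene of 1 exon on chromosome 17, encode nearly the same Hsp70 protein. The deposited values of Hspa1a were 11, 12.2, 12.7 and 11.5 in LPS, 144, 161, 195 and 156 in LE, and 170, 192, 206 and 209 in LEKU. Those of Hspa1b were 23, 25.5, 26.5 and 23.9 in LPS, 192, 215, 260 and 208 in LE, and 259, 292, 312 and 318 in LEKU. For both genes every LPS value was far under every value of the treated conditions, although within a condition the values differ only through library size. Divided by library size, the level of Hspa1a was 13.4 in LPS, 148 in LE and 185 in LEKU. The level in LE was 11-fold that in LPS, a log2 fold of 3.37 (95% counting interval 2.94 to 3.79). For Hspa1b the levels were 28, 197 and 282, and LE was 7.03-fold above LPS, a log2 fold of 2.77 (2.47 to 3.07). Among the 13959 genes with a level of at least 10 in every condition, these differences ranked 87th and 186th from the highest.

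With the ATM inhibitor present, both genes were higher still. Hspa1a in LEKU was 1.26-fold its level in LE (log2 0.33, 0.18 to 0.48) and Hspa1b was 1.43-fold (log2 0.52, 0.39 to 0.64), so neither reached 1.5-fold. These differences ranked only 2350th and 1187th from the highest of the 13959 genes. Against LPS the LEKU level was 13.8-fold for Hspa1a (log2 3.69, 3.27 to 4.11) and 10.1-fold for Hspa1b (log2 3.29, 2.99 to 3.58), ranks 27 and 42 of 13959. The comparisons share libraries, so these values restate each other in part. For both genes the fitted means stood off from the overall mean that the authors list, by -4.33% for Hspa1a and -3.95% for Hspa1b, while the other 8 members were within 0.2%.

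The split of reads between both genes is uncertain. Of all stretches of 100 bases, the read length, in the Hspa1a transcript, 56.5% also occur in transcripts of other genes and 47.1% in that of Hspa1b. For Hspa1b 49.9% are shared, all of them with Hspa1a. Gm20481, an annotated gene on the opposite strand, overlaps 19% of the exonic length of Hspa1a. How reads that fit both genes were counted is not given in the sources used here. Summed over both genes, the level was 41.4 in LPS, 344 in LE and 467 in LEKU.

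Even at their highest, the inducible genes were a small part of the cytosolic Hsp70 mRNA. Hspa8 encodes Hsc70, the constitutive Hsp70 that folds new proteins and uncoats clathrin vesicles. Its level per kb of exons was 13747 in LPS, 10335 in LE and 12853 in LEKU. The exons of a gene were joined over all its annotated transcripts. Such a length can exceed that of the mRNA made, which lowers the level per kb of genes with many transcripts. For Hspa8 it was 4301 bases from 10 transcripts, and for Hspa1a 2967 bases from 1. That was 948 times the sum of Hspa1a and Hspa1b per kb in LPS, 86.2 times in LE and 78.9 times in LEKU. The inducible genes made up 0.105% of the 3 genes together, per kb, in LPS and 1.15% in LE. Shared stretches of 100 bases were 56.5% for Hspa1a and 49.9% for Hspa1b, against 28.5% for Hspa8. If reads that fit several genes went uncounted, the share of the inducible genes would be too low and the ratios too high.

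Hspa8 itself was lowest in LE. Its deposited values were 48500, 53808, 55973 and 50436 in LPS, 43339, 48575, 58831 and 47090 in LE, and 50765, 57246, 61329 and 62339 in LEKU. These overlap between conditions before division by library size. Divided by library size the levels were 59125, 44453 and 55283. LE was at 0.752 of LPS, a log2 fold of -0.41 (-0.42 to -0.40), and LEKU was 1.24-fold LE, a log2 fold of 0.31 (0.31 to 0.32). LEKU against LPS was -0.10, and over 5 scalings (the authors' size factors, median of ratios, library totals, trimmed means and quantiles) it ran from -0.14 to 0.09. Hspa8 was 11th of all genes in level in LPS, 24th in LE and 15th in LEKU. Stretches shared with other transcripts, most of them with Gm15459, made up 28.5% of its transcripts, and its annotated exons overlap the small nucleolar RNAs Snord14c, Snord14d and Snord14e.

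**Figure D2:**
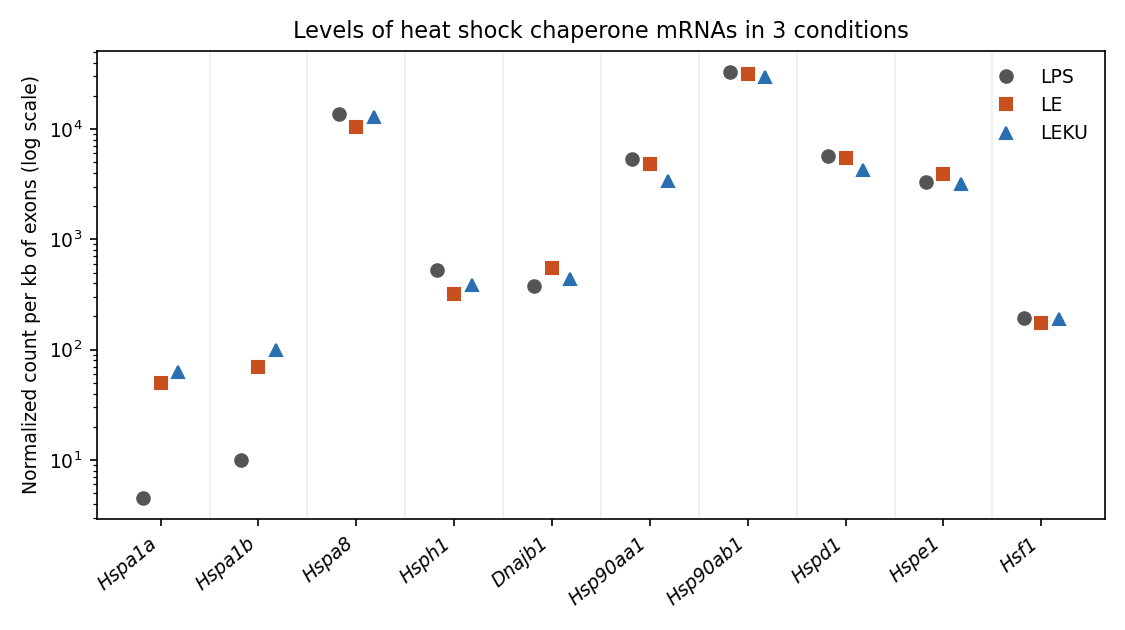
Level of each of the 10 genes as normalised count per kb of exons, on a log axis, with 1 symbol per condition (fitted means, with no error bars since the table holds no replicate spread). Hsp90ab1 and Hspa8 are highest in all 3 conditions, and Hspa1a and Hspa1b are lowest, with the widest gaps between LPS and the treated cells.

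Among the partners of Hsp70, Hsph1 was lower and Dnajb1 higher in LE than in LPS. Hsph1 encodes Hsp110, an exchange factor that works with Hsp70 in dissolving aggregates. Its deposited values were 3146, 3490, 3631 and 3272 in LPS, 2261, 2534, 3069 and 2456 in LE, and 2558, 2885, 3090 and 3141 in LEKU. All LE values were under all LPS values, but within a condition the values differ only through library size. The levels were 3835, 2319 and 2786. LE was at 0.605 of LPS, a log2 fold of -0.73 (-0.76 to -0.69), and this was past 1.5-fold in 4 of 5 scalings, with a range of -0.81 to -0.58. LEKU was 1.2-fold LE (log2 0.26, 0.23 to 0.30) and stayed under LPS (log2 -0.46).

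Dnajb1 encodes the main stress-inducible Hsp40, the J-domain partner of cytosolic Hsp70. Its deposited values were 999, 1109, 1153 and 1039 in LPS, 1704, 1910, 2313 and 1852 in LE, and 1273, 1435, 1537 and 1563 in LEKU. LPS was lowest and LE highest. Within a condition these values differ only through library size, so that their lying apart is no separate support. The levels were 1218, 1748 and 1386. LE was 1.43-fold LPS, a log2 fold of 0.52 (0.47 to 0.57) that was past 1.5-fold in 1 of 5 scalings. LEKU was at 0.793 of LE (log2 -0.33, -0.38 to -0.29). Per kb, Dnajb1 was at 380 and Hsph1 at 528 in LPS, while in LE Dnajb1 was at 546 and Hsph1 at 319. This change of order depends on the joined exon lengths, 3204 bases for Dnajb1 and 7266 for Hsph1. Before division by length Hsph1 was above Dnajb1 in every condition. Hspa8 was 36.2 times Dnajb1 per kb in LPS, 18.9 times in LE and 29.7 times in LEKU.

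The cytosolic Hsp90 genes had small folds with etoposide, and Hsp90aa1 was lower with the inhibitor. Hsp90ab1, the constitutive form, had levels of 98417 in LPS, 93989 in LE and 88872 in LEKU, and was 4th of all genes in level in every condition. Its log2 folds were -0.07 for LE against LPS, -0.08 for LEKU against LE and -0.15 for LEKU against LPS, and the first and the last changed sign with the scaling (-0.15 to 0.06 and -0.19 to 0.04). Hsp90aa1, the stress-responsive form, had deposited values of 17118, 18992, 19756 and 17802 in LPS, 18385, 20606, 24957 and 19976 in LE, and 12233, 13795, 14779 and 15022 in LEKU. The LEKU values lay under all others, while those of LPS and LE overlapped. Here too the values within a condition differ only through library size.

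Divided by library size, Hsp90aa1 was at 20869 in LPS, 18857 in LE and 13322 in LEKU. LE against LPS was -0.15 on the log2 scale, with a sign that changed with the scaling (-0.23 to 0.05). LEKU was at 0.706 of LE, a log2 fold of -0.50 (-0.52 to -0.49). Against LPS it was at 0.638, a log2 fold of -0.65 (-0.66 to -0.63) that was past 1.5-fold in 3 of 5 scalings. The level of Hsp90ab1 per kb was 6.18 times that of Hsp90aa1 in LPS, 6.53 times in LE and 8.74 times in LEKU. Of the stretches in Hsp90aa1 transcripts 38% are shared with Gm12346 or a few other gene models, so its count depends on how such reads were assigned, whereas Hsp90ab1 shares none.

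The mitochondrial chaperonin genes, which share the 4-unit element shown above, were both lower in LEKU than in LE. Hspd1 had levels of 14914 in LPS, 14305 in LE and 11186 in LEKU. Its LE against LPS fold was -0.06 on the log2 scale, with a sign that changed with the scaling (-0.15 to 0.16). LEKU against LE was -0.35 (-0.37 to -0.34), and LEKU against LPS was -0.41. Hspe1 had levels of 4881, 5760 and 4689. Its LE against LPS fold was 0.24 (0.21 to 0.27) and LEKU against LE was -0.30 (-0.32 to -0.27). LEKU against LPS was -0.06, and its sign changed with the scaling (-0.10 to 0.26). Per kb, Hspd1 was 1.7 times Hspe1 in LPS, 1.39 times in LE and 1.33 times in LEKU. The annotated genes overlap head to head by 112 bases on opposite strands.

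Hsf1, which encodes the regulator itself, differed little between conditions. Its levels were 1362 in LPS, 1229 in LE and 1332 in LEKU. The log2 folds were -0.15 (-0.20 to -0.09) for LE against LPS, 0.11 (0.06 to 0.17) for LEKU against LE and -0.03 (-0.09 to 0.02) for LEKU against LPS. The last changed sign with the scaling (-0.08 to 0.15). HSF1 acts through its activation as a protein, which mRNA levels do not measure.

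**Figure D3:**
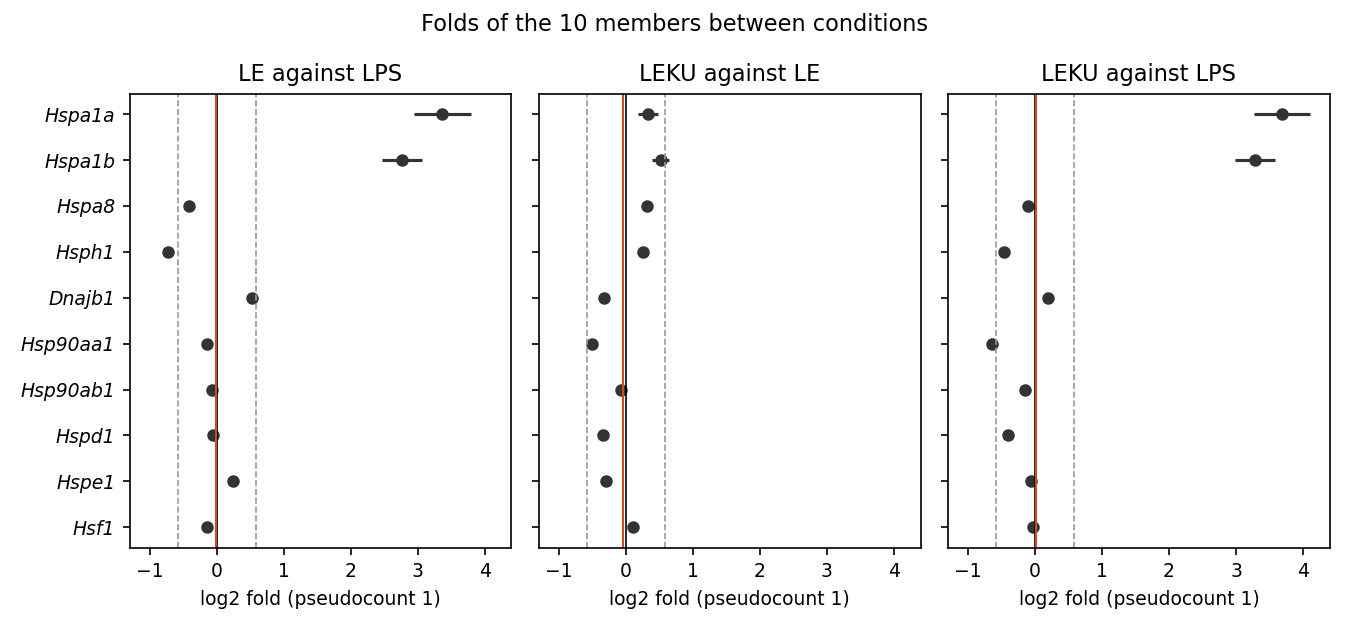
Log2 fold of each gene between conditions, with 95% counting intervals (bars, mostly shorter than the symbols), 1.5-fold in either direction (dashed) and the median of the 15571 genes (orange). Hspa1a and Hspa1b stand at 3.37 and 2.77 in LE against LPS, and the other 8 genes lie between -0.73 and 0.52.

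As a list, the 10 genes did not share 1 direction. In LE against LPS, 2 of 10 (20%) were at least 1.5-fold higher, beside 21.9% of all genes kept, and 1 (10%) was at least 1.5-fold lower, beside 16.4%. In LEKU against LE 0 of 10 were past 1.5-fold in either direction, beside 6.87% higher and 12% lower over all genes. In LEKU against LPS, 2 (20%) were higher, beside 20.1%, and 1 (10%) was lower, beside 16.2%. The shares of the members were therefore near those of all genes or under them. The median log2 fold of the members was -0.06, 0.02 and -0.08 in these 3 comparisons, and that of all genes was -0.018, -0.051 and 0.0073. The signs of such medians depend on the scaling, since library totals put the median of all genes at 0.11 for LE against LPS and 0.2 for LEKU against LPS, and median of ratios put the former at -0.11.

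The order of the 3 conditions differed between members. LEKU lay between LPS and LE in level for Hspa8, Hsph1, Dnajb1 and Hsf1, and it lay beyond LE for Hspa1a and Hspa1b (higher) and for Hsp90aa1, Hsp90ab1 and Hspd1 (lower). Hspe1 was highest in LE and about as high in LEKU as in LPS. With other scalings the order of LEKU and LPS changed for Hspa8, Hsp90ab1, Hspe1 and Hsf1, and that of LE and LPS for Hsp90aa1, Hsp90ab1 and Hspd1. In LEKU against LE the members Hspa1a, Hspa1b, Hspa8 and Hsph1 had values above 0 (0.26 to 0.52). Of the 9 other Hsp70 and Hsp110 genes described below, 7 had values below 0, beside 55.8% of all genes kept. Among these 7, Hspa9, at -0.01, was above 0 in some scalings. The remaining genes of that list, Hspa4l at 0.65 and Hspa13 at 0.57, were higher in this comparison than every member. Among the members Dnajb1, the Hsp90 genes and the chaperonin genes had values below 0 or at 0 in all scalings. Between genes, per kb, the order from the highest was Hsp90ab1, Hspa8, Hspd1, Hsp90aa1 and Hspe1 in all conditions. Hspd1 was only 1.06 times Hsp90aa1 in LPS and 1.13 times in LE, and Hsp90aa1 was 1.07 times Hspe1 in LEKU; with no replicate spread, whether such neighbours differ could not be tested. Hsf1, Hspa1b and Hspa1a came last in every condition. In LPS this rests on the joined exon length of Hsf1, 7099 bases. Before division by length its level there, 1362, was above that of Dnajb1, 1218. The summed level of the 10 genes was 0.809% of all signal in LPS, 0.792% in LE and 0.807% in LEKU.

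The members were set beside 88 other genes of the chaperone network in 8 lists, of which 87 were in the table and 81 passed the minimum. In LE against LPS 9 of the 81 were at least 1.5-fold higher and 6 lower (median log2 -0.14). In LEKU against LE 3 were higher and 4 lower (median -0.09), and in LEKU against LPS 8 were higher and 12 lower (median -0.17). These shares, between 3.7% and 14.8%, were each below that of all genes kept.

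Of the other Hsp70 and Hsp110 family genes, 1 of 9 was higher and 1 lower in LE against LPS, with a median of -0.34. The shares of all genes kept were 21.9% and 16.4%. In LEKU against LE also 1 was higher (Hspa4l) and 1 lower (Hspa2), beside 6.87% and 12% of all genes kept. The median was -0.30. In LEKU against LPS 3 of the 9 were lower (Hspa12b, Hspa1l and Hspa4) and 1 was higher (Hspa2). Over all genes kept 16.2% were lower and 20.1% higher. Hspa12b and Hspa1l had low levels, 23.3 and 25.9 in LPS. Hspa2, an Hsp70 best known from the testis, had levels of 245 in LPS, 1019 in LE and 589 in LEKU, log2 folds of 2.05 for LE against LPS and -0.79 for LEKU against LE. In contrast to Hspa1a and Hspa1b, it was lower with the inhibitor than with etoposide alone. Hspa4, which encodes an Hsp110 protein, was at 11400, 7237 and 5885, and its LE against LPS fold of -0.66 was past 1.5-fold in 3 of 5 scalings, while LEKU against LE was -0.30. Hspa9, the mitochondrial Hsp70, stood at -0.41 and Hspa14 at 0.39.

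Among the J-domain proteins 3 of 16 (18.8%) were higher and 2 (12.5%) lower in LE against LPS, beside 21.9% and 16.4% of all genes kept. Their median was -0.07, with a sign that changed with the scaling. Dnajb5 was at 412 in LPS, 1323 in LE and 720 in LEKU (log2 1.68 and then -0.88). Dnajb4 stood at 0.59 in LE against LPS, past 1.5-fold in 2 of 5 scalings. Dnaja1, a cytosolic partner of Hsc70, was at -0.61 (3 of 5 scalings), and Dnajc7, which binds both Hsp70 and Hsp90, was at -0.91 (5 of 5). Dnajb2 was the gene of this list with the highest LEKU against LE fold, with levels of 550, 613 and 1359. It was picked out after its values were seen.

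Hsp70 exchange factors and ligases had 1 of 9 genes higher and 1 lower in LE against LPS, with a median of 0.29. Over all genes kept 21.9% were higher and 16.4% lower. Bag4 stood at 0.71, Bag5 at 0.57, St13, the Hsp70 cofactor Hip, at -0.45 and Bag2 at -0.81. Hsp90 co-chaperones had 0 of 15 higher and 1 lower, but 13 of the 15 had folds below 0, beside 51.3% of all genes kept, and the median was -0.42 (-0.51 to -0.25 over the scalings). Fkbp5, an immunophilin of steroid receptor complexes, was lowest at -0.64, followed by Chordc1 at -0.53, while Unc45a stood at 0.41 and Ttc4 at 0.06. In LEKU against LPS 5 of the 15 were at least 1.5-fold lower (Ahsa1, Cacybp, Fkbp5, Ptges3 and Stip1) and 1 was higher (Unc45a), beside 16.2% lower and 20.1% higher of all genes kept. Ahsa1, Ptges3 and Stip1 were past 1.5-fold in 3 of 5 scalings, and the other 3 in 5 of 5. Ahsa1 stimulates the Hsp90 ATPase, Ptges3 is the co-chaperone p23 and Stip1 is Hop, which links Hsp70 to Hsp90.

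The cytosolic chaperonin and prefoldin genes, which fold actin and tubulin, had 0 of 14 past 1.5-fold in LE against LPS. Cct6a was at -0.48, Cct3 at -0.46, and Pfdn4 and Pfdn5 both at 0.18. The median was -0.14, with a sign that changed with the scaling. The other mitochondrial chaperones and proteases had 1 of 10 higher and 0 lower. Over all genes kept the shares were 21.9% higher and 16.4% lower. Grpel2, a nucleotide exchange factor of mitochondrial Hsp70, was at -0.42, and its paralogue Grpel1 was at -0.01. Clpp was at -0.28 and Clpb at 0.19.

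Of 9 genes listed as small heat shock proteins only 4 passed the minimum, with 1 higher (Hspb1) and 1 lower (Hspb6) in LE against LPS. Of all genes kept 21.9% were higher and 16.4% lower. Hspb1, the stress-inducible Hsp27, had levels of 7.09 in LPS, 11.1 in LE and 15.9 in LEKU. Its LPS level was under the minimum of 10, so that it was kept only through the treated conditions. At these low counts its LE against LPS log2 fold of 0.59 had a standard error from counting of 0.35. Over the scalings that fold ran from 0.03 to 0.70, and it was past 1.5-fold in only 2 of them. Hspb6 was at 185, 93 and 180 (log2 -0.98 and then 0.94), and Hspb11 was at 0.39. Among the heat shock factors and their regulators 4 of 6 passed. Hsf2 was at -0.05, with a sign that changed with the scaling, and Hsbp1, which binds HSF1 trimers, was at 0.45. Hsf4 had levels of 7.22, 38.1 and 12.7, a log2 fold of 2.25 in LE against LPS and -1.52 in LEKU against LE, at low counts.

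**Figure D4:**
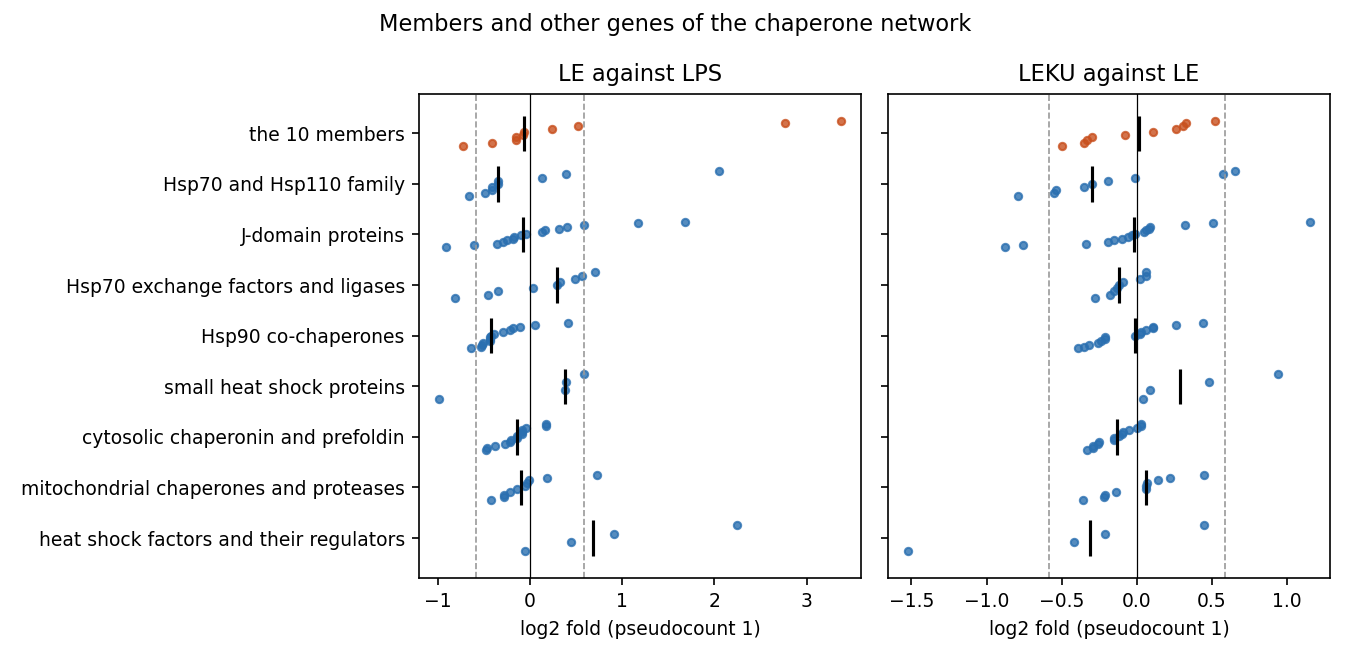
Log2 folds of the 10 genes (orange) and of the kept genes of 8 chaperone network lists (blue), with list medians (black bars) and 1.5-fold in either direction (dashed). In LE against LPS Hspa1a and Hspa1b lie beyond every other gene plotted, and in LEKU against LE the members lie within 1.5-fold.

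The genes most like the members in pattern were sought by the distance between profiles over the 3 conditions, on the log2 scale after centring. To the median profile of the 10 genes, the nearest of 10282 candidates with a level of at least 100 in every condition were Ndufa10, Aggf1, Tomm7, Map7 and Sep15, at distances of 0.0026 to 0.0057. This profile is nearly flat, so that likeness to it says little. After the values of Hspa1a and Hspa1b were seen, the search was run on their mean profile over 13949 candidates with a level of at least 10 in every condition. The nearest genes were Nr4a3 (levels of 152, 1204 and 1576), Gprc5a (26.4, 270 and 317), Rasd1 (67.3, 673 and 754), Klf4 (19.1, 137 and 217) and Ptgs2 (114, 982 and 1040). Their distances of 0.092 to 0.27 are over 3 conditions only, which leaves little to tell profiles apart.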

How the data were processed

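Total mRNA from 12 libraries was read from the table of normalised counts. Per the labels and methods, the authors trimmed reads with Trim Galore and cutadapt 1.2.1, mapped single reads of 100 bases with TopHat2 2.0.12 to GRCm38, counted them with HTSeq on Ensembl 78 and fitted DESeq2 1.6.3. The strand setting of the counting is not given in the sources used here. The deposited signal in each library is the fitted condition mean times the size factor. The 3 deposited comparisons hold an overall mean signal, fold changes, standard errors, Wald statistics and p-values; of these only the overall mean signal by the authors was used.

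Size factors (0.82 to 1.32) were recovered by regressing that overall mean on 1 column per condition over genes with a mean above 100. Genes that deviated from the fit by over 1% were left out in repeated fits, so that 10607 of 10866 stayed. The level is the column divided by its factor. The agreement of the genes that stayed follows from this selection and is no separate check; those left out deviated by up to 19.3%. Median of ratios over genes with no zero had been planned as the scaling. The recovered factors were made the main setting after both had been computed and the members' folds under each had been seen, because fitted means hold no zeros (smallest 0.063) and the recovered factors are those of the authors' fit. The planned scaling is kept as an alternative. The planned limma fit and replicate block need values per replicate and were not run.

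Folds used log2(level + 1) for genes with a level of at least 10 in 1 condition. Counting intervals came from the summed columns, which are fitted reads. Exonic lengths and overlaps came from GENCODE M21 on GRCm38, the build of the files, and promoter windows from RefSeq. A length counts every base in an exon of any annotated transcript of the gene. The fold procedure was run on simulated data with known folds, in which replicates differed by counting error and library size only. That run says nothing about spread between replicates. Scripts ran under Python 3.11.15 (numpy 2.4.6, pandas 2.3.3, matplotlib 3.10.9). Members and lists were chosen with earlier results of these data known. Network genes were named as the 2 highest and 2 lowest LE against LPS folds of each list among genes with a level of at least 100 in a condition; the other network genes named, the member pairs and sums and the profile of Hspa1a and Hspa1b were chosen after values were seen.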

Additional observations from a re-analysis of the deposited data

How the results depend on the processing

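No paired analysis was possible because the columns hold fitted condition means and no value per replicate. Leaving out 1 library kept every value by construction, since each fitted mean came from all 4 libraries: members at least 1.5-fold higher and lower stayed at 2 and 1 in LE against LPS, 0 and 0 in LEKU against LE, and 2 and 1 in LEKU against LPS. This says nothing about stability. Of the 508 values recomputed under the other alternatives 356 moved by less than the counting error or tolerance used, 152 moved by more, and 0 values past 1.5-fold changed sign. Median of ratios, the scaling first planned, gave median member folds of -0.15, 0.06 and -0.12 in the 3 comparisons. With library totals, the medians were 0.07 in LE against LPS and 0.11 in LEKU against LPS, 0 members were lower in LEKU against LPS, and 1619 of all genes were. Quantile normalization gave medians of 0.11 and 0.03 and 0 members lower in either comparison. The columns as deposited, not corrected for library size, gave medians of 0.27 and 0.17, 0 members lower in both, 1 lower in LEKU against LE, 5262 of all genes higher and 1147 lower in LE against LPS, and 1398 lower in LEKU against LPS. A minimum of 50 left 2187 genes higher in LE against LPS, 1205 lower in LEKU against LE and 2061 higher in LEKU against LPS, and a minimum of 10 in every condition left 1223 lower in LEKU against LE, since fewer genes were counted. At a lower threshold, a log2 fold of 0.32, 2 members and 4624 genes were lower in LE against LPS; 2 members and 2642 genes were higher and 3 members and 3824 genes lower in LEKU against LE; 3 members and 4548 genes were lower and 4763 genes higher in LEKU against LPS. At a fold of 2, 0 members were lower in LE against LPS and in LEKU against LPS; 2207 genes were higher and 941 lower, 266 higher and 732 lower, and 1688 higher and 951 lower in the 3 comparisons. Without division by length 6 of 10 members kept their place in the order of levels in each condition. Allowing 2 units, 5 members had a heat shock element. Counting error limits Hspa1a and Hspa1b in LPS, whose columns sum to 47.4 and 98.8 reads over 4 libraries; for the other members the missing replicate spread is the limit.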
